A study of Mus musculus with 6 samples.

Results

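The genes described here encode the working parts of the lysosome: its hydrolases and their activators, proteins of its limiting membrane, the vacuolar proton pump, and the transcription factors Tfeb, Tfe3 and Mitf. They were chosen by name, from a list of 39 symbols and all symbols that begin with Atp6v or Atp6ap. Cathepsins were left out of the choice. Of the 39 names, 38 had a row in the deposited table, and 16 pump genes were found, which gives 54 genes of 11644. Ppt2 was not analysed here, nor were 10 of the 26 annotated pump genes, among them Atp6v0c. The levels were measured in cultured mouse leukemia cells named MLL-ENL/NrasG12D, after the fusion oncogene and the mutated Nras that they carry. The tested cells received 5 µM EPZ015666, a small molecule inhibitor of the arginine methyltransferase PRMT5, and the other cells received its solvent DMSO at an equal concentration. Both groups carry the same oncogenes, were dosed again on day 2 and were collected at 72 h. Polyadenylated RNA was sequenced from 3 inhibitor libraries and 3 DMSO libraries. The series calls them independent replicates without saying what was repeated, so the p-values measure the spread among these libraries, which may be technical. All come from 1 cell line.

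Lysosomal hydrolases are soluble enzymes that take proteins, glycans and lipids apart at acid pH. The acidity comes from the vacuolar ATPase, in which a peripheral V1 sector splits ATP and turns a membrane V0 sector that carries protons inward. Tfeb, Tfe3 and Mitf bind a CACGTG-centred promoter element found in many lysosomal genes, and they are held in the cytoplasm when the kinase complex mTORC1 is active on the lysosomal surface. Macrophages and their precursors are rich in lysosomes.

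The libraries held 11335948 to 19197912 reads assigned to genes. All levels below are normalized counts: the reads of a gene, scaled by the size factor of the library. Group differences were tested with limma over all 11644 genes, and p-values were adjusted by the Benjamini-Hochberg method and called under 0.05. Of the 9 markers set out for granulocyte-monocyte progenitors, Mpo, Prtn3, Ctsg, Kit, Cd34, Myb, Hoxa9 and Meis1 had a row, and Elane did not. Lymphoid markers were represented by Cd79b alone, at 12.3 to 22.6 normalized counts in inhibitor libraries and 24.5 to 28.5 in DMSO libraries. DMSO library 2 stood apart from the other DMSO libraries for lysosomal genes: it was the highest of the DMSO libraries for 37 of the 54 genes (68.5%), against 34.8% of all genes. The median log2 difference of DMSO library 2 from the other DMSO libraries was 0.14 over the 54 genes and -0.01 over all genes. A higher level lies towards the inhibitor group only for genes that rose. DMSO library 2 was also the highest DMSO library for Sgsh, Naglu, Ppt1 and Gm2a, which fell.

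After PRMT5 inhibition 13 of 16 proton pump genes and 6 of the 9 chosen membrane proteins rose and none of either fell, whereas the soluble enzymes moved both ways and 4 of 5 sulfatases fell. Of the 54 genes, 37 passed the test, beside 46.5% of all genes: 28 rose (51.9%, against 23.6% of all genes), 9 fell (16.7%, against 22.9% of all genes) and 17 did not pass. Over the 54 genes the median log2 fold change was 0.27, and over all genes it was 0.00. The groups did not overlap for 31 genes with the inhibitor libraries above (28.2% of all genes) and for 8 with them below (27.9% of all genes). Summed over the 54 genes, normalized counts were 143100 to 150200 in inhibitor libraries and 111000 to 125600 in DMSO libraries, and the groups did not overlap. In bulk RNA, more cells of one kind and more transcript per cell cannot be told apart. Without DMSO library 2, 29 genes rose and 8 fell, with a median log2 fold change of 0.33.

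**Figure D1:**
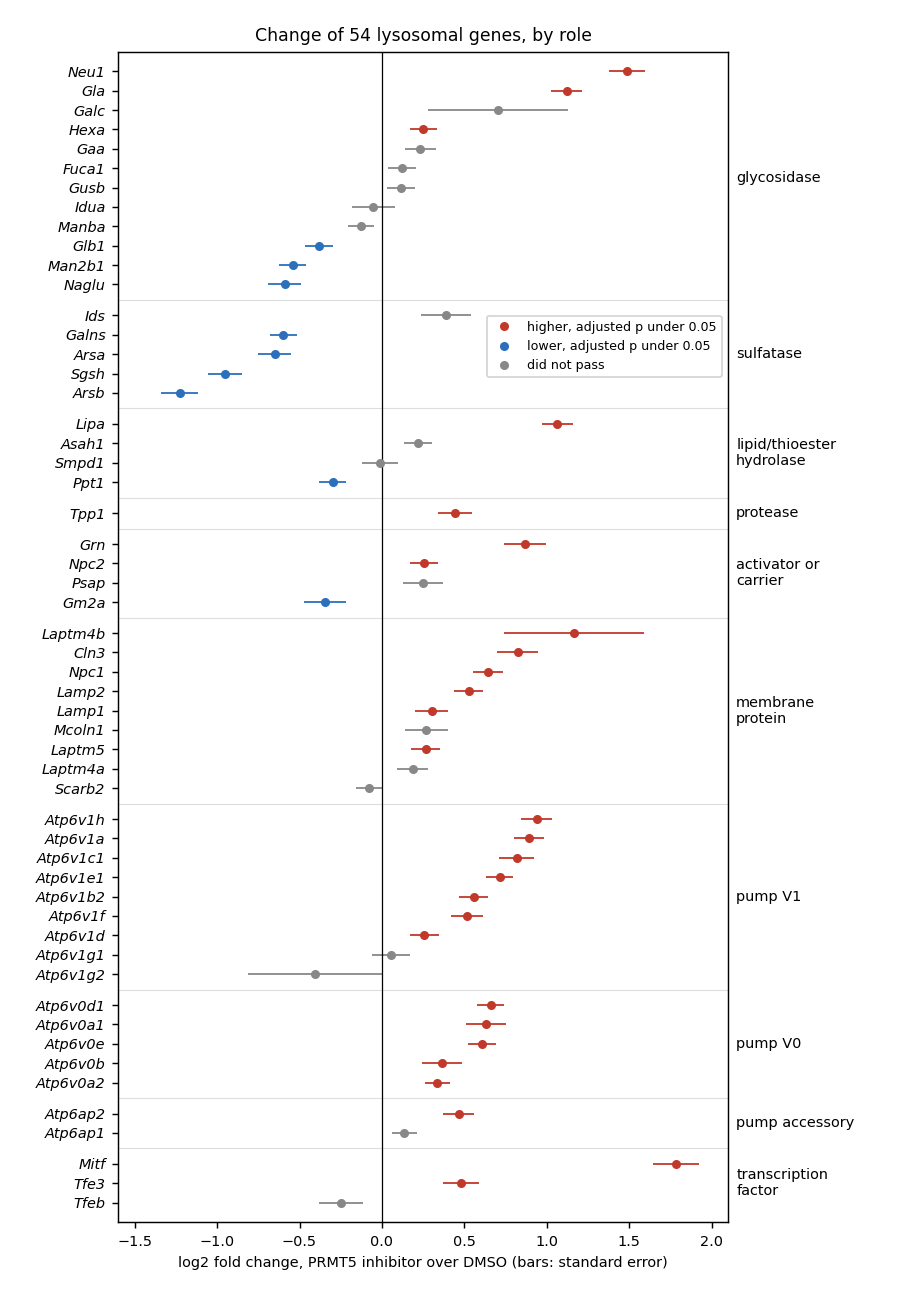
Log2 fold change (PRMT5 inhibitor over DMSO, 3 libraries each) of the 54 lysosomal genes, ordered by role, with limma standard errors as bars. Pump and membrane genes lie mostly right of 0, up to 0.94 for Atp6v1h in the pump and 1.17 for the low gene Laptm4b among the membrane proteins, and 4 of the 5 sulfatases lie left of it, down to -1.23 for Arsb.

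Most of the measured macrophage markers also rose with the inhibitor. Of 12 markers 9 were measured, of which 7 rose, Mrc1 fell and Fcgr1 did not pass. Their summed level was 9156 to 9535 normalized counts in inhibitor libraries and 3641 to 4200 in DMSO libraries. The sum was lowest in DMSO library 2, at 3641, against 4200 and 3797 in DMSO libraries 1 and 3. Counted by gene, DMSO library 2 was the highest DMSO library for 2 of the 9 measured markers and for 37 of the 54 lysosomal genes. Cd68, 1 of the 7, is also counted below among the other lysosomal membrane proteins. Csf1r, the receptor of macrophage colony-stimulating factor, rose 3.17-fold (limma adjusted p = 3.9e-08). The complement genes C1qb and C1qc, typical of mature macrophages, were among the 7 that rose. Both were low, under 21.6 normalized counts in every library. Of 10 neutrophil markers 6 were measured and 5 rose, with sums of 561 to 693 in inhibitor libraries and 278 to 293 in DMSO libraries. Of 9 progenitor markers 8 were measured, 2 rose and 3 fell, with sums of 26150 to 29400 in inhibitor libraries and 22630 to 28250 in DMSO libraries. Of 8 stromal and endothelial markers 3 were measured and none passed, and Itga2b was the only 1 of 8 erythroid and megakaryocyte markers with a row, at 20.4 to 40.9 with the inhibitor and 4.04 to 9.82 in DMSO. The part of these markers in the lysosomal result was not tested.

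Among the transcription factors, Mitf rose the most of all 54 genes, Tfe3 rose by less, and Tfeb did not pass. Mitf (chromosome 6, 97807052 to 98021349, plus strand), known for its part in melanocytes, mast cells and osteoclasts, stood at 221, 217 and 226 normalized counts in inhibitor libraries 1, 2 and 3, against 69.3, 63.8 and 57.9 in DMSO libraries 1, 2 and 3. All inhibitor libraries lay far above all DMSO libraries. The ratio of the means was 3.47, and the log2 fold change was 1.78 ± 0.14 (SE, limma adjusted p = 2e-06). Tfe3 (chromosome X, 7762560 to 7775202, plus strand), a close relative, had 646, 657 and 661 in inhibitor libraries and 426, 550 and 440 in DMSO libraries. Its groups did not overlap either, although DMSO library 2 came nearest (log2 fold change 0.48 ± 0.11 SE, limma adjusted p = 0.00324). Tfeb (chromosome 17, 47737030 to 47792419, plus strand), the member best known as a regulator of lysosomal genes, had 397, 344 and 369 with the inhibitor and 373, 542 and 420 in DMSO. These values overlapped, and the log2 fold change was -0.25 ± 0.13 (SE, limma adjusted p = 0.142; unadjusted 95% interval -0.54 to 0.04). Without DMSO library 1, Tfeb passed as lower (limma adjusted p = 0.0477). Per kilobase of exon, the levels in inhibitor libraries were 70.7 for Tfe3, 65.3 for Tfeb and 35.7 for Mitf. In DMSO libraries they were 51.0 for Tfe3, 78.6 for Tfeb and 10.3 for Mitf. Protein amount and place in the cell, through which these factors are mainly controlled, were not measured.

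The promoters of the lysosomal genes were searched for CACGTG, the core bound by these factors, on both strands, in a window from 250 bases before to 50 bases after the annotated start. RefSeq promoters (GRCm38.p6) were matched for 45 of the 54 genes, and 13 of them (28.9%) held CACGTG. Of 8808 genes of the table with a promoter, 12% held it, and of all 27025 genes with a promoter, 8.09%. Each of the 13 also held TCACGTG or its reverse complement, which contains CACGTG and was searched after the first result was seen. That longer word stood in 7.22% of the table's promoters. The longer palindrome in which the core is flanked by GT before and AC after it was present in Cln3 alone, against 0.886% of the table's promoters. Among lysosomal genes with a promoter, CACGTG was found in 7 of 22 that rose, 4 of 8 that fell and 2 of 15 that did not pass. Risen genes of the whole table held it in 12.5% of cases and fallen genes in 12.6%. The motif was thus present in genes that moved in either direction, and a match is a description of letters and not of binding.

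The following stretches of 30 bases show the element in genes that rose and in genes that fell, on the strand of the gene, 5′ to 3′, with CACGTG in capitals. Gla, Atp6v1a, Atp6v0d1, Atp6v0e and Cln3 rose, and Sgsh, Arsa, Naglu and Glb1 fell.
Gla (chrX:134601182-134601211, minus strand): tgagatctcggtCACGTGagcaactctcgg
Atp6v1a (chr16:44139373-44139402, minus strand): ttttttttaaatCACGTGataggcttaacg
Atp6v0d1 (chr8:105566050-105566079, minus strand): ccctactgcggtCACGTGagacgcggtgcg
Atp6v0e (chr17:26676387-26676416, plus strand): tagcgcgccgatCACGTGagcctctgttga
Cln3 (chr7:126583340-126583369, minus strand): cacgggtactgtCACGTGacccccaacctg
Sgsh (chr11:119355522-119355551, minus strand): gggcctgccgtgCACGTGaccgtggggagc
Arsa (chr15:89477423-89477452, minus strand): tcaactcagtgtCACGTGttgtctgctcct
Naglu (chr11:101070009-101070038, plus strand): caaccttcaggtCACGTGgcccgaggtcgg
Glb1 (chr9:114401018-114401047, plus strand): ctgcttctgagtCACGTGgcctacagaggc
The element began 194 bases before the start in the stretch shown for Gla, 131 before it in Atp6v1a, 29 before it in Sgsh, 73 before it in Naglu and 48 before it in Glb1. Gla held the element at 2 places and Lamp1 at 4. The whole promoters of Gla, which rose, and of Sgsh, which fell, are set side by side below, with each CACGTG in capitals.
Gla (chrX:134600956-134601255, minus strand): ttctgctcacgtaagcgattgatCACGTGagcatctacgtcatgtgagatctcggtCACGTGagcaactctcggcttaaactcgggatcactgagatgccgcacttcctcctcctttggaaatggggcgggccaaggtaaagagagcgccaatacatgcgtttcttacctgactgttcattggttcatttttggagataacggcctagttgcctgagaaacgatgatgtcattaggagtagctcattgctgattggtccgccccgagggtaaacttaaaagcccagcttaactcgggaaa
Sgsh (chr11:119355461-119355760, minus strand): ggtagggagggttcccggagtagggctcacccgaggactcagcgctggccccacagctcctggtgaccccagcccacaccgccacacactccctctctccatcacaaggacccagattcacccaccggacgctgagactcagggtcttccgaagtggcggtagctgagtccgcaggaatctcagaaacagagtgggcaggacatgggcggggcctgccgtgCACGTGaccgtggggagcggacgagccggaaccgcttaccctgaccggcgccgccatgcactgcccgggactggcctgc

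Most of the proton pump rose together. Of 16 pump genes, 13 rose (81.2%, against 23.6% of all genes), none fell and 3 did not pass, and their median log2 fold change was 0.54. Leaving out single libraries gave 11 to 13 risen genes. Their summed level was 39000 to 40800 normalized counts in inhibitor libraries, against 26170 to 29530 in DMSO libraries, a ratio of means of 1.45. DMSO library 2 was the highest DMSO library for 12 of the 16.

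In the V1 sector, 7 of 9 genes rose, with the largest changes in the regulatory subunit H and the catalytic subunit A. Atp6v1h (chromosome 1, 5070018 to 5162529, plus strand), whose product couples ATP hydrolysis to proton transport, had 3638, 3687 and 3108 normalized counts in inhibitor libraries and 1786, 1977 and 1677 in DMSO libraries. The ratio of means was 1.92 (log2 fold change 0.94 ± 0.09 SE, limma adjusted p = 1.47e-05). Atp6v1a, which carries the ATP-splitting site, stood at 4489, 4243 and 3758 with the inhibitor and at 2289, 2373 and 2058 in DMSO. It rose 1.86-fold (limma adjusted p = 1.74e-05), and neither gene had an inhibitor library near the DMSO range. Atp6v1b2, the B subunit that alternates with A in the head of the pump, rose 1.47-fold, to 3264 ± 228 normalized counts with the inhibitor, against 2219 ± 156 in DMSO (SD, n = 3 per group, limma adjusted p = 0.000339).

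Stalk subunits differed more among themselves. Atp6v1c1, which joins the V1 sector to the stator, had 3154, 3232 and 3204 in inhibitor libraries and 1620, 2164 and 1703 in DMSO libraries (log2 fold change 0.82 ± 0.10 SE, limma adjusted p = 7.89e-05). DMSO library 2 was again the highest of its group. Atp6v1e1, of the peripheral stalks, stood at 3142, 3183 and 2844 with the inhibitor and at 1890, 1947 and 1746 in DMSO, a 1.64-fold rise (limma adjusted p = 3.91e-05). The small subunit Atp6v1f, of the central rotor, rose 1.44-fold (limma adjusted p = 0.00101). Its rotor partner Atp6v1d rose 1.19-fold (limma adjusted p = 0.0299), a call that was lost without inhibitor library 1 or 2 or DMSO library 1 or 3 (limma adjusted p = 0.0589, 0.0882, 0.102 and 0.127). Atp6v1g1, the partner of E in the stalks, averaged 2496 ± 374 with the inhibitor and 2392 ± 271 in DMSO (SD, n = 3 per group). The log2 difference was 0.06 ± 0.12 (SE) and missed the threshold (limma adjusted p = 0.71; unadjusted 95% interval -0.20 to 0.31). Atp6v1g2, known from neurons, was low, at 8.39 to 26.9 with the inhibitor and 14.7 to 25.8 in DMSO, and overlapped between the groups.

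In the V0 sector all 5 measured genes rose. Atp6v0d1, the collar between rotor and membrane ring, had 2478, 2435 and 2320 normalized counts in inhibitor libraries and 1556, 1632 and 1399 in DMSO libraries. All inhibitor libraries lay above the DMSO range, by a ratio of means of 1.58 (log2 fold change 0.66 ± 0.08 SE, limma adjusted p = 7.38e-05). Atp6v0e, a small membrane subunit, rose 1.52-fold (limma adjusted p = 0.000161). Among the large a subunits, which carry the proton half-channels and decide where a pump is placed, Atp6v0a1 rose 1.53-fold (limma adjusted p = 0.0013) and Atp6v0a2, known from the Golgi, 1.26-fold (limma adjusted p = 0.00363). Tcirg1, the a3 subunit of lysosomes and osteoclasts, was not among the 54 genes because its symbol differs. It stood at 4268, 4968 and 6763 with the inhibitor and at 2152, 2450 and 2645 in DMSO, a 2.21-fold rise (log2 fold change 1.12 ± 0.14 SE, limma adjusted p = 8.42e-05). Its inhibitor libraries differed widely and still lay above the DMSO range. Atp6v0b, of the proton-carrying ring, had 2879, 3335 and 4250 with the inhibitor and 2616, 2792 and 2629 in DMSO (limma adjusted p = 0.0282). Its inhibitor library 1 was close to DMSO library 2, and the call was lost without inhibitor library 2 or 3 or DMSO library 1 or 3 (limma adjusted p = 0.069, 0.0816, 0.0724 and 0.0708).

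The accessory subunits help the pump to assemble. Atp6ap2, also called the prorenin receptor, had 3037, 3580 and 3307 in inhibitor libraries and 2201, 2628 and 2356 in DMSO libraries, a 1.38-fold rise (limma adjusted p = 0.0017). Atp6ap1 had 3537, 3595 and 3424 with the inhibitor and 3287, 3245 and 3074 in DMSO. Its groups did not overlap, but the log2 difference, 0.14 ± 0.08 (SE), missed the threshold (limma adjusted p = 0.161).

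**Figure D2:**
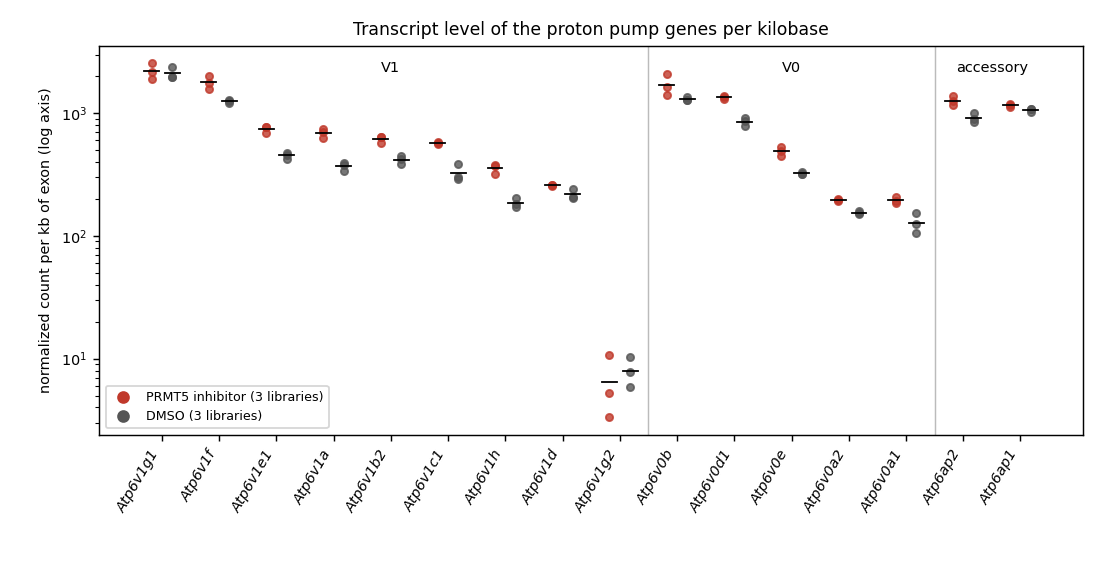
Level of the 16 proton pump genes in normalized counts per kilobase of exon (log axis), with each library as a point and the group mean as a line, inhibitor left of DMSO for each gene. Atp6v1a averaged 689 with the inhibitor and 371 in DMSO, while Atp6v1g1 averaged 2199 and 2107 in the same order and its points overlap.

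Per kilobase of exon, the pump transcripts were not equal in level. In inhibitor libraries the V1 genes other than Atp6v1g2 ran from 260 for Atp6v1d to 2199 for Atp6v1g1, and in DMSO libraries from 186 for Atp6v1h to 2107 for Atp6v1g1. The subunits A, B2, C1 and E1 lay close together, at 571 to 744 with the inhibitor and 326 to 453 in DMSO. The length used is that of all annotated exons of a gene, and genes with long rare exons appear lower by it.

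Of the 9 membrane proteins, 6 rose (66.7%, against 23.6% of all genes), 3 did not pass and none fell (against 22.9% of all genes), with a median log2 fold change of 0.30. Of these 6 calls, those on Lamp1, Laptm5 and Laptm4b were lost when single libraries were left out. Lamp1 (chromosome 8, 13159161 to 13175338, plus strand), the most abundant glycoprotein of the limiting membrane, had 15826, 16618 and 15952 normalized counts in inhibitor libraries and 12564, 14438 and 12368 in DMSO libraries. DMSO library 2 lay nearest to the inhibitor group, and the groups did not overlap (log2 fold change 0.30 ± 0.10 SE, limma adjusted p = 0.0298). That call was lost for Lamp1 without inhibitor library 2 or DMSO library 1 or 3 (limma adjusted p = 0.118, 0.108 and 0.125). Lamp2, which also serves as the receptor of chaperone-mediated autophagy, had 4548, 5431 and 4914 with the inhibitor and 3386, 3623 and 3309 in DMSO. It rose 1.44-fold (limma adjusted p = 0.000564), and its groups lay well apart.

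Npc1, the membrane protein that passes cholesterol out of the lysosome, stood at 1625, 1840 and 1687 normalized counts with the inhibitor and at 1020, 1230 and 1053 in DMSO. That is a 1.56-fold rise (log2 fold change 0.64 ± 0.09 SE, limma adjusted p = 0.00019). Npc2, the soluble protein that hands cholesterol to Npc1, had 5781, 6234 and 6038 with the inhibitor and 5217, 5226 and 4684 in DMSO. Npc2 rose by 0.26 ± 0.08 on the log2 scale (SE, limma adjusted p = 0.0268), and that call was lost without inhibitor library 2 or DMSO library 3 (limma adjusted p = 0.11 and 0.133). Both genes of this transfer pair were thus higher in every inhibitor library than in any DMSO library. Cln3, a membrane protein lost in a childhood form of neuronal ceroid lipofuscinosis, had 812, 863 and 1023 with the inhibitor and 426, 589 and 514 in DMSO (log2 fold change 0.82 ± 0.13 SE, limma adjusted p = 0.000296).

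Mcoln1, the calcium channel TRPML1, had 369, 452 and 521 with the inhibitor and 333, 396 and 376 in DMSO, values that overlapped. At a log2 difference of 0.27 ± 0.13 (SE) it missed the threshold (limma adjusted p = 0.11), but Mcoln1 passed without inhibitor library 1 (limma adjusted p = 0.0214) and with the replicate number as a block (limma adjusted p = 0.0421). The transmembrane proteins of the LAPTM family differed in level: Laptm5, typical of blood cells, averaged 11282 ± 471 with the inhibitor and 9388 ± 379 in DMSO (SD, n = 3 per group, limma adjusted p = 0.0302). Leaving out any library but inhibitor library 3 lost that call (limma adjusted p = 0.0574 without inhibitor library 1, 0.0628 without inhibitor library 2, 0.054, 0.0651 and 0.122 without DMSO libraries 1, 2 and 3). Laptm4a averaged 1747 ± 173 with the inhibitor and 1531 ± 103 in DMSO and did not pass (limma adjusted p = 0.122), although it did without inhibitor library 1 (limma adjusted p = 0.0292). Laptm4b was near the floor of the table, at 22.5, 22.4 and 16.1 with the inhibitor and 4.89, 16.95 and 6.87 in DMSO. Its groups overlapped through DMSO library 2, and its call (limma adjusted p = 0.0411) was lost in every fit that left out a library other than DMSO library 2 (limma adjusted p = 0.0527 to 0.142) and by edgeR and DESeq2. Scarb2, an integral membrane protein, had 925 ± 35.7 with the inhibitor and 976 ± 42.1 in DMSO (limma adjusted p = 0.458).

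Soluble enzymes were split. Among the 22 measured hydrolases, 5 rose (22.7%, against 23.6% of all genes), 8 fell (36.4%, against 22.9% of all genes) and 9 did not pass, with a median log2 fold change of 0.05. The share that rose was close to that of all genes. Their summed level was 32670 to 34930 normalized counts in inhibitor libraries and 30730 to 32080 in DMSO libraries.

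Of the 12 glycosidases, 3 rose (25%), 3 fell (25%) and 6 did not pass, shares near the 23.6% and 22.9% of all genes. Neu1 (chromosome 17, 34931253 to 34935953, plus strand), the sialidase that removes terminal sialic acid, had 1191, 1326 and 1508 normalized counts in inhibitor libraries and 429, 536 and 468 in DMSO libraries. Every inhibitor library lay far above the highest DMSO library. The ratio of means was 2.81 and the log2 fold change 1.49 ± 0.11 (SE, limma adjusted p = 1.58e-06), more than any other of the 22 hydrolases. Gla (chromosome X, 134588149 to 134601125, minus strand), the alpha-galactosidase that is deficient in Fabry disease, had 1194, 1218 and 1141 with the inhibitor and 563, 588 and 485 in DMSO. It rose 2.17-fold (log2 fold change 1.12 ± 0.09 SE, limma adjusted p = 3.42e-06). Hexa, the alpha subunit of beta-hexosaminidase, was far more abundant and rose by less, with 5812 ± 159 in inhibitor libraries and 4888 ± 291 in DMSO libraries (SD, n = 3 per group, limma adjusted p = 0.0266). Its call was lost without inhibitor library 2 or 3 or DMSO library 1 or 3 (limma adjusted p = 0.086, 0.0514, 0.0841 and 0.118).

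The 3 glycosidases that fell act on other bonds. Naglu, an exoglycosidase of heparan sulfate breakdown, had 375, 439 and 466 normalized counts with the inhibitor and 634, 655 and 633 in DMSO (log2 fold change -0.59 ± 0.10 SE, limma adjusted p = 0.000588). Man2b1, an alpha-mannosidase of glycoprotein breakdown, had 2974, 2998 and 3116 with the inhibitor and 4689, 4176 and 4385 in DMSO (log2 fold change -0.54 ± 0.08 SE, limma adjusted p = 0.000217). Glb1, the lysosomal beta-galactosidase, had 1099, 1123 and 972 with the inhibitor and 1468, 1351 and 1344 in DMSO (log2 fold change -0.38 ± 0.09 SE, limma adjusted p = 0.00342). None of the 3 overlapped between the groups. Glb1 and Neu1, whose products are held in 1 multienzyme complex by the protective protein cathepsin A, therefore moved in opposite directions. Ctsa, the gene of that protein, picked from the cathepsin list after its values were seen, had 4668, 5300 and 6429 with the inhibitor and 7833, 8526 and 7990 in DMSO, and fell by 0.58 ± 0.11 on the log2 scale (SE, limma adjusted p = 0.00141).

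No other glycosidase passed. Gaa, the acid maltase, averaged 985 ± 33.2 with the inhibitor and 842 ± 93.7 in DMSO (SD, n = 3 per group, limma adjusted p = 0.0634), and passed as higher without DMSO library 2 (limma adjusted p = 0.018) or with the replicate block (limma adjusted p = 0.0392). The abundant beta-glucuronidase Gusb stood at 5703 ± 202 with the inhibitor and 5273 ± 349 in DMSO (limma adjusted p = 0.289). Fuca1, Manba and Idua had log2 fold changes of 0.12, -0.13 and -0.05. Galc, at 9.19 to 23.8 with the inhibitor and 5.71 to 11.3 in DMSO, was too low to settle a change (unadjusted 95% interval of the log2 fold change -0.22 to 1.63).

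Sulfatases take sulfate groups off glycosaminoglycans and sulfolipids. Of the 5 listed, 4 fell (80%, against 22.9% of all genes), Ids did not pass, and the count of 4 was the same in every fit that left out a library. Arsb (chromosome 13, 93771630 to 93943016, plus strand), which acts on dermatan and chondroitin sulfate, had 142, 150 and 145 normalized counts in inhibitor libraries and 364, 326 and 338 in DMSO libraries. It was lower by a ratio of means of 2.35, and both groups spread little (log2 fold change -1.23 ± 0.11 SE, limma adjusted p = 5.9e-06). Sgsh, the heparan N-sulfatase, had 449, 463 and 421 with the inhibitor and 781, 990 and 828 in DMSO (log2 fold change -0.96 ± 0.10 SE, limma adjusted p = 2.41e-05). Arsa, which acts on sulfatide, had 229, 224 and 229 with the inhibitor and 372, 353 and 348 in DMSO (log2 fold change -0.65 ± 0.10 SE, limma adjusted p = 0.000299). Galns, which acts on keratan and chondroitin sulfate, had 576, 561 and 573 with the inhibitor and 904, 840 and 849 in DMSO (log2 fold change -0.60 ± 0.08 SE, limma adjusted p = 0.000128). All 4 lay below the whole DMSO range in every inhibitor library.

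Ids, the iduronate sulfatase, went the other way in its values, with 130, 126 and 105 with the inhibitor and 88.1, 86.4 and 100 in DMSO. It narrowly missed the threshold (log2 fold change 0.39 ± 0.15 SE, limma adjusted p = 0.0528) and passed without inhibitor library 3 (limma adjusted p = 0.0333). Arsg and Arsk, further sulfatases from the list of other lysosomal enzymes, had log2 fold changes of -0.21 and -0.32 and did not pass. Sumf1, the enzyme that activates every sulfatase, averaged 1387 ± 64.0 with the inhibitor and 1275 ± 85.8 in DMSO (SD, n = 3 per group, limma adjusted p = 0.249). Exons of Arsb, Sgsh and Arsa overlap annotated genes on the opposite strand over 39.9%, 21.6% and 18.8% of their length. The libraries were stranded, but whether the counting used the strand is not given in the sources used here, so these 3 are uncertain to that extent. Hexa and Atp6v0b have such overlaps over 12.8% and 11.9% of their exons.

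Heparan sulfate is broken down by several of these enzymes in turn, and their transcripts did not move as 1 group. Sgsh and Naglu fell, and Hgsnat, the membrane acetyltransferase of the same route, rose 1.26-fold (limma adjusted p = 0.0172). Ids, Idua and Gusb did not pass. This grouping by substrate was made after the values were seen.

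**Figure D3:**
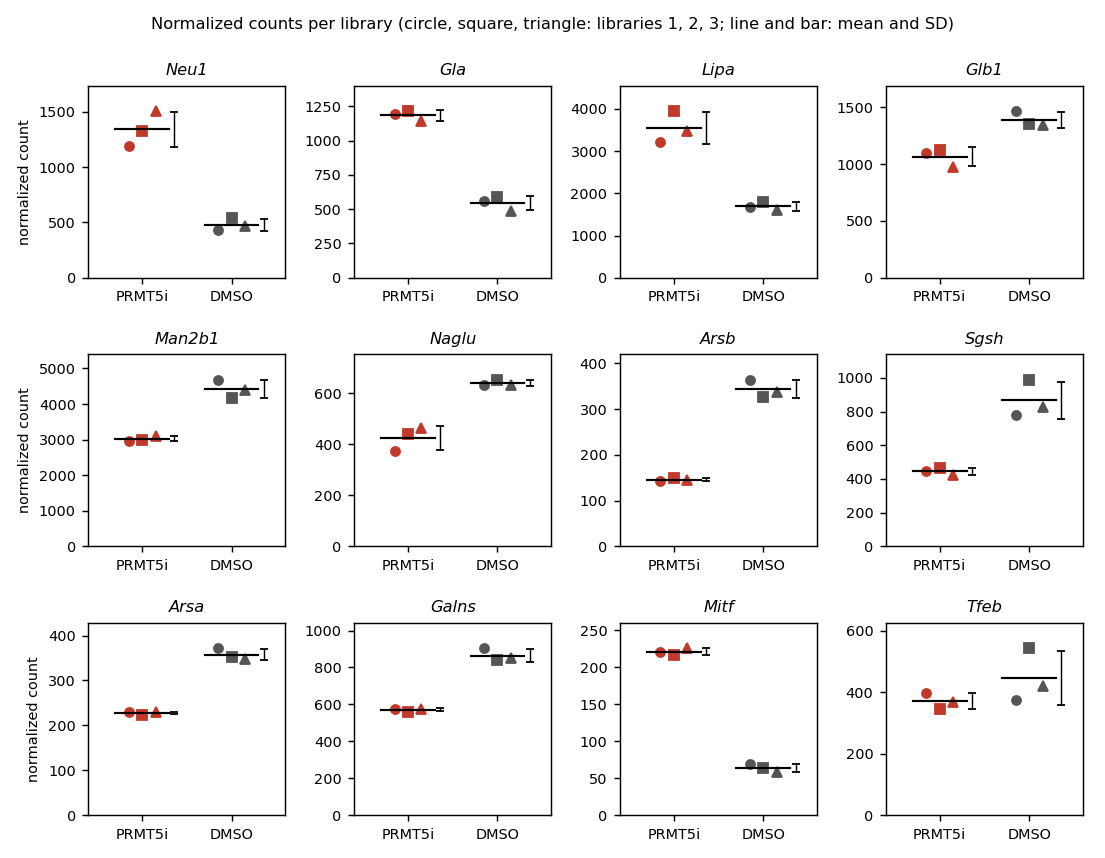
Normalized counts in each library for 10 hydrolase genes and for Mitf and Tfeb, with the inhibitor libraries left of the DMSO libraries, the group mean as a line, the SD as a bar and axes that start at 0. The groups are apart for every gene drawn except Tfeb, where DMSO library 2 reaches 542 and DMSO library 1 lies at 373, within the range of the inhibitor libraries.

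Among enzymes of lipids and thioesters, 1 of 4 rose, 1 fell and 2 did not pass. Lipa (chromosome 19, 34492318 to 34527474, minus strand), the acid lipase that frees cholesterol and fatty acids from lipoprotein esters, had 3206, 3953 and 3464 normalized counts in inhibitor libraries and 1671, 1804 and 1594 in DMSO libraries. The ratio of means was 2.096 (log2 fold change 1.06 ± 0.09 SE, limma adjusted p = 5.03e-06). Ppt1, which cleaves thioester-linked fatty acids from proteins, had 1325, 1458 and 1392 with the inhibitor and 1656, 1833 and 1652 in DMSO (log2 fold change -0.30 ± 0.08 SE, limma adjusted p = 0.0101). Acid ceramidase, Asah1, averaged 3382 ± 272 with the inhibitor and 2898 ± 117 in DMSO (SD, n = 3 per group), just short of the threshold (limma adjusted p = 0.0509), and passed without inhibitor library 1, with the replicate block and by DESeq2 (adjusted p = 0.0214, 0.0456 and 0.0449). Acid sphingomyelinase, Smpd1, had a log2 fold change of -0.01 ± 0.11 (SE, unadjusted 95% interval -0.25 to 0.23). The protease Tpp1, an aminopeptidase, rose 1.36-fold, with 1134, 1183 and 1315 with the inhibitor and 794, 1026 and 860 in DMSO (limma adjusted p = 0.00466).

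Activators and soluble carriers were also mixed. Grn (chromosome 11, 102430315 to 102437048, plus strand), the precursor of granulins that is needed for normal lysosomal function, had 8264, 8194 and 8768 normalized counts in inhibitor libraries and 3964, 5785 and 4268 in DMSO libraries. DMSO library 2 was the highest of its group and still below every inhibitor library (log2 fold change 0.87 ± 0.13 SE, limma adjusted p = 0.000201). Psap, the precursor of the saposins that present sphingolipids to their hydrolases, was the most abundant of the 54 genes per kilobase, with 7025 in inhibitor libraries and 5958 in DMSO libraries. Its normalized counts were 18459, 19784 and 19583 with the inhibitor and 14819, 19343 and 14886 in DMSO. Psap overlapped through DMSO library 2 alone and did not pass (limma adjusted p = 0.119), but passed without that library (limma adjusted p = 0.0228). Gm2a, the activator that lifts ganglioside GM2 out of membranes for beta-hexosaminidase, had 231, 310 and 256 with the inhibitor and 340, 361 and 309 in DMSO. It fell with a small overlap between inhibitor library 2 and DMSO library 3 (log2 fold change -0.35 ± 0.13 SE, limma adjusted p = 0.0409). That call was lost without inhibitor library 1 or 3 or DMSO library 1 or 2 (limma adjusted p = 0.138, 0.0921, 0.0939 and 0.0966) and by DESeq2 (adjusted p = 0.055).

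The 54 genes covered a wide range of levels. Per kilobase of exon, Psap, Lamp1, Laptm5 and Hexa held the first 4 places in both groups, and Galc the last. Across the 54 genes, which share libraries and size factors, Pearson's r between the log2 level per kilobase in DMSO and the signed log2 fold change was -0.11 and Spearman's rho was -0.06. Against the size of the change, whatever its sign, r was -0.38 and rho was -0.30. By these values lower genes tended to have larger changes, Mitf and Arsb among them. The DMSO level enters both quantities, so the correlation cannot tell a trait of the genes from error in their measurement. The low and least precise genes Laptm4b, Galc and Atp6v1g2 were included, and their part in the correlation was not tested. Neu1 moved to place 26 of the order in inhibitor libraries, against place 38 in DMSO libraries, and Sgsh to place 42, against place 31.

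**Figure D4:**
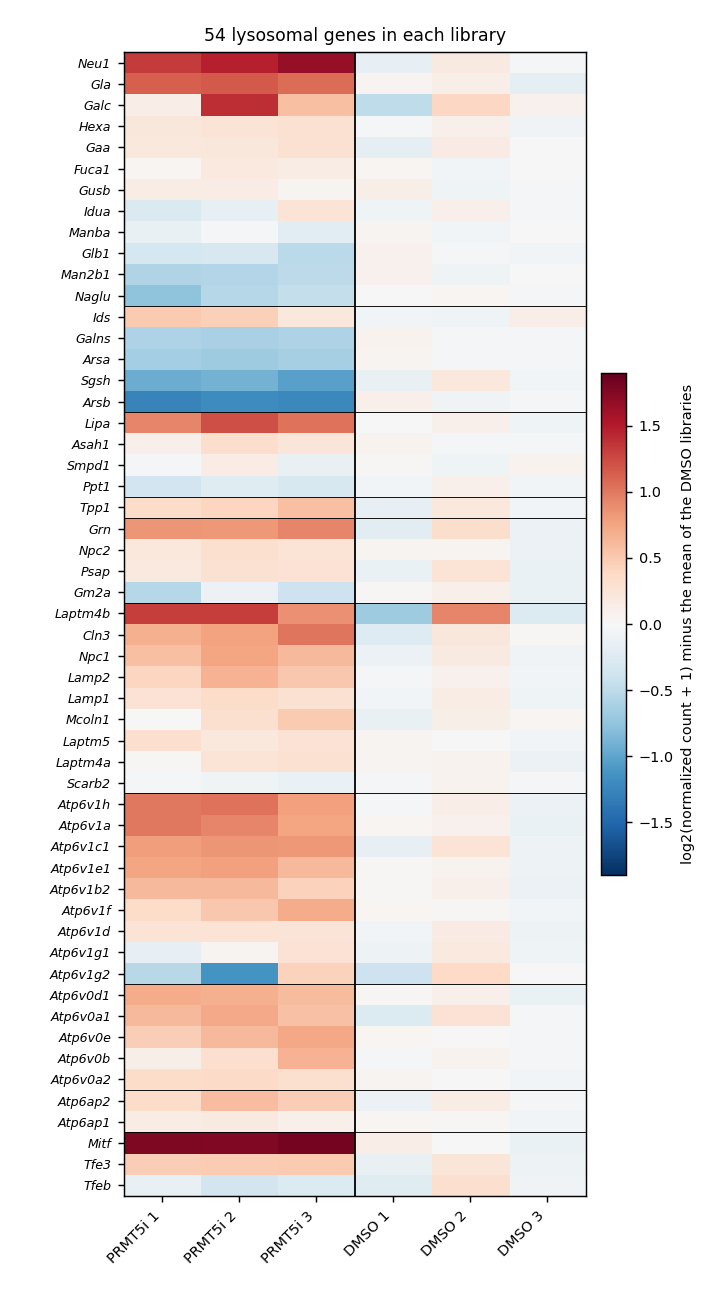
Log2(normalized count + 1) of each of the 54 genes in each library, minus the mean of the DMSO libraries, with the inhibitor libraries on the left and genes ordered by role as in the plot of log2 fold changes. Most cells in the inhibitor columns of the pump and membrane genes are red, with Scarb2, Atp6v1g2 and Atp6v1g1 as exceptions in at least 1 library, those of 4 sulfatases are blue, and DMSO library 2 is slightly red in most rows, with a median of 0.14 above the other DMSO libraries.

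Lists of related genes give the surroundings of these 54, and no test compared the lists with each other. Their counts stand beside 23.6% of all genes that rose and 22.9% that fell. Of 27 other lysosomal enzymes and activators, 11 rose (40.7%) and 4 fell (14.8%), with a median log2 fold change of 0.09. The smallest adjusted p among them belonged to Ggh, the gamma-glutamyl hydrolase of folates (2.08-fold, limma adjusted p = 2.64e-05). Of 32 other membrane proteins and transporters, 9 rose (28.1%) and 9 fell (28.1%), both near the shares of all genes. Slc11a1, the phagosomal metal transporter of macrophages, rose 14.8-fold, to 531 ± 30.7 normalized counts with the inhibitor against 35.9 ± 4.24 in DMSO (SD, n = 3 per group, limma adjusted p = 9.34e-09). Abca2, a lipid transporter, fell (log2 fold change -1.29 ± 0.11 SE, limma adjusted p = 4.63e-06), and Slc15a3, a peptide transporter, rose 4.37-fold (limma adjusted p = 3.61e-05).

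Enzymes reach the lysosome by mannose 6-phosphate tags. Of 23 genes of tagging, sorting and lysosome fusion, 11 rose (47.8%) and 4 fell (17.4%). Sort1, a sorting receptor, rose 3.58-fold (limma adjusted p = 4.54e-05), Arl8a, a small GTPase that moves lysosomes, 1.67-fold (limma adjusted p = 0.000145), and M6pr, the cation-dependent tag receptor, 1.39-fold (limma adjusted p = 0.000747). Gnptab, the enzyme that makes the tag, chosen after its values were seen, fell (log2 fold change -0.34 ± 0.08 SE, limma adjusted p = 0.0036). Of 24 genes around the control of Tfeb, 13 rose (54.2%) and 3 fell (12.5%). That list mixes mTORC1, the Rag and Ragulator proteins, inhibitors of mTORC1 such as Nprl2 and Nprl3, which rose, calcineurin subunits such as Ppp3cb, which fell, and the factor Tfec, so its count has no single direction for Tfeb. Rragc and Tfec had 1.86-fold and 2.23-fold rises (limma adjusted p = 4.24e-05 and 0.000104). Rragd, itself known as a target of Tfeb, rose 5.26-fold from a low level, with 27.6, 48.9 and 32.3 with the inhibitor and 7.34, 6.46 and 6.87 in DMSO (limma adjusted p = 0.000195). Mtor was among the 3 that fell (log2 fold change -0.52 ± 0.09 SE, limma adjusted p = 0.000722).

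Of 34 core autophagy genes, 6 rose (17.6%) and 2 fell (5.88%), both under the shares of all genes. The smallest adjusted p were those of Gabarap and Gabarapl2, which coat the autophagosome, and of Atg16l1, with 1.73-fold, 1.72-fold and 1.66-fold rises (limma adjusted p = 1.36e-05, 6.31e-05 and 0.000349). Of 13 cathepsins, 8 rose (61.5%) and 2 fell (15.4%), with a median log2 fold change of 0.48. Ctsb, Ctsd and Ctsc rose 3.05-fold, 3.09-fold and 1.39-fold (limma adjusted p = 3.38e-06, 4.91e-06 and 0.00034).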

How the data were processed

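Stranded mRNA libraries were made for the 6 samples, per the labels' protocols. CASAVA 1.8.2, TopHat2 2.0.10, HTSeq 0.6.0, DESeq 1.16.0 and the build mm10 are listed in the submitters' processing notes, with no role or order. For the counting, the annotation and the strand setting were not given in the sources used here. The table deposited by the authors holds a normalized signal: read counts per gene, scaled by 1 size factor per library. The values show this, since 100% were whole multiples of 1 step per library, within 1e-06, and so whole reads were recovered. No gene has fewer than 10 reads in its highest library, and low genes are the least precise. No further filter was set.

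Inhibitor libraries were set against DMSO libraries in a two-sided limma-trend fit of log2(normalized count + 1), made with limma 3.58.1 under R 4.3.3 and without a replicate block. Log2 fold changes are on that scale, which understates low genes, and other folds are ratios of means. On recovered reads, edgeR 4.0.16 after its expression filter called 2541 genes higher and 2750 lower, beside 2753 and 2665 here. DESeq2 1.42.0, limma-voom, TMM scaling, pseudocounts 0.5 and 5, a minimum mean of 100, a replicate block and leaving out each library were also tried. The scripts were tested on simulated data.

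Values per library were given for up to 12 rises and 12 falls with the largest log2 fold change among called members whose higher group averaged 100 or more, for a set of regulators and landmark proteins, and for the leading member of each role. Per related list, up to 3 genes are named, by smallest adjusted p; some results are not reported here. Other genes named outside the 54, and Ids and Atp6v0b with values per library, were chosen after their values were seen. Members and lists were chosen with earlier results of these data known. Coordinates and exon lengths come from GENCODE M21 (mm10), and promoters from RefSeq (GRCm38.p6).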

Additional observations from a re-analysis of the deposited data

How the results depend on the processing

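Of the 37 lysosomal genes past the threshold, 29 (21 higher, 8 lower) passed in the same direction in all 15 alternatives that kept them, and the 4 sulfatase falls were among them. With the scaling, test, pseudocount and minimum mean changed, 27 or 28 genes rose and 8 or 9 fell, the pump count was 13, and the median log2 fold change was 0.24 to 0.27. Leaving out 1 library gave 21 to 29 risen and 8 or 9 fallen genes, 5 to 9 risen enzymes and activators (7 in the full data), and 2078 to 2751 risen and 2067 to 2598 fallen genes overall; the fewest risen lysosomal genes were found without inhibitor library 2 or DMSO library 3. TMM scaling shifted the median of all genes by -0.02. In the fits without 1 library, 3 genes that did not pass changed sign: the log2 fold change ran from -0.21 to 0.054 for Idua, from -0.088 to 0.054 for Smpd1 and from -0.052 to 0.16 for Atp6v1g1. With the replicate number as a block, 31 lysosomal genes rose and 9 fell, and Mcoln1, Asah1 and Gaa were gained. The numbers were not taken as a pairing: deviations of same-numbered libraries correlated at 0.165, 0.0499 and 0.205, the second under 0.1, although each library correlated best with its own number. The sulfatase count was added to the alternatives after the data were seen. Depth limits Galc, Laptm4b and Atp6v1g2, which hold few reads.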
